A study of Rattus norvegicus with 42 samples.

Results

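The Myh2 window is the stretch of chromosome 10 that holds the gene of myosin heavy chain IIa, taken here as 38501 nt of the plus strand of Rnor_6.0 with peaks from chr10:53711560 to 53738235. It was placed by the order of the genes, in which Myh2 is followed by Myh1 and Myh4. It was selected on the tag counts of the soleus on the first day of recovery against control, where its 2 largest falls ranked 2 and 4 among 9842 tested peaks, so those values are given as a description, without a test. Of 9971 deposited TSS peaks, 29 begin inside the window, all of them on the plus strand. The window held 178252 tags over all libraries, 34653 in soleus and 143599 in EDL, at 4729 CTSS (CAGE tag start sites, single positions where tags begin). The deposited peaks took 96.4% of these tags.

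The data are CAGE libraries (cap analysis of gene expression, which reads the 5′ ends of capped RNAs) of the slow m. soleus and the fast m. extensor digitorum longus (EDL) of 21 Wistar rats. Control rats (C) moved freely. Disuse rats hung by the tail, with the hind limbs unloaded, for 1 (D1), 3 (D3) or 7 days (D7). Recovery rats were unloaded for 7 days and then released for 1 (R1), 3 (R3) or 7 days (R7). Each of the 14 groups holds 3 rats, every rat gave a soleus and an EDL library, and rats are named by their number (U6 and so on). A whole muscle holds many fibres and other cells, so fewer cells of a type and less RNA per cell cannot be told apart. Libraries held 1778712 to 23103236 tags (median 9354058), of which 3.20% to 10.7% were mitochondrial, and levels are given as tags per 1000000 tags of the library (TPM). They were run in 6 lanes. All controls of both muscles were in lane 1, where the only other library was the D1 soleus of U24, and all R1 libraries were in lane 4, together with the R3 soleus of U4. Phase and lane can therefore hardly be told apart against control.

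Myosin heavy chains are the motor proteins of the thick filament, and the isoform a fibre makes largely sets how fast it shortens. Myh2 encodes the IIa chain of fast oxidative fibres, Myh1 the IIx chain and Myh4 the IIb chain of the fastest fibres, while slow fibres make the chain of Myh7. The soleus of the rat consists mostly of slow fibres with some IIa fibres, and the EDL mostly of fast ones. The 3 fast genes lie side by side and their coding sequences are very alike.

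The upstream sequences of the 3 genes are shown because their first starts are compared with each other at the end, although most tags of the Myh2 window lay downstream of its first start. They come from RefSeq on GRCr8, plus strand, chr10:52355619-52355738 for Myh2, chr10:52384792-52384911 for Myh1 and chr10:52422028-52422147 for Myh4. Each ends at the base before the annotated start, and capitals mark TATAAA.
Myh2: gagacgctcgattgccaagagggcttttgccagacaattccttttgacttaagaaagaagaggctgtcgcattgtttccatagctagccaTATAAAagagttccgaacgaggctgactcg
Myh1: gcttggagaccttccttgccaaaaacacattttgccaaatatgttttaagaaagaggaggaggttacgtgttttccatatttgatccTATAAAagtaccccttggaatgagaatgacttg
Myh4: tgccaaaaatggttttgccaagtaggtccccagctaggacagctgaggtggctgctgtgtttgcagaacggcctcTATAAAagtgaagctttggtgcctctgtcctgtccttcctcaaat
In Myh2 the TATAAA begins 30 bases before the start, in Myh1 33 and in Myh4 45, counting the match nearest to the start. Within the 250 bases before the start this motif was present on either strand in 12.9% of 33469 rat promoters. CANNTG, the E-box, was present in 65.5% of them, had no match in Myh2 or Myh1 and had 2 in Myh4. The MEF2 motif, in 2.96% of promoters, had no match in Myh2 and had matches in Myh1 and Myh4. A match describes letters only. Over these 120 bases Myh2 was identical to Myh1 in 79 of 129 aligned columns (61.2%) and to Myh4 in 63 of 135 (46.7%). The deposited positions are on another build and could not be laid onto these bases.

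The first peak of the window lay at chr10:53711560-53712069 and is called the first start. Before it the window held 45 tags. It took 22996 tags, 12.9% of the window, and 37.0% of them (8513) began at 1 position, 53711929, the CTSS with the most tags in the window. Distances are counted from there. A second cluster lay 78 nt upstream at 53711851. The other 28 peaks lay 2046 to 26010 nt downstream, and 18 peaks lay more than 15 kb downstream. The 2 other peaks with the most tags were at chr10:53727161-53727410, 15.4 kb from the first start, with 17855 tags, and at chr10:53733720-53733988, 21.8 kb from it, with 15024 tags. No annotation of Rnor_6.0 was used, so it is not said which of them lie in exons. The nearest peak before the window, at chr10:53643714-53643843, was at 3.20 TPM in soleus and 10.2 TPM in EDL, and the first one after it, at chr10:53740362-53741105, at 7.02 and 226 TPM. The last one inside, at chr10:53737880-53738235, was at 0.699 and 4.79 TPM, and 79 tags lay between the window and the peak that followed.

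The study's methods let a read map to up to 20 loci, and the file headers call the counts rescued tag counts, so the window was checked for places counted together with others. Of 51 CTSS with at least 500 tags, 19 had a counterpart outside the window whose counts over the 42 libraries differed by less than the sampling noise (chi-square statistic below 58.1, its 95% point), leaving out single values under 3 tags. These 19 held 35.7% of the tags of the 51. The closest counterpart lay in the Myh1 window for 17 of them. Some had more than 1 counterpart, up to 32 for the CTSS at 53735351 with 544 tags, so a match at few tags does not single out a place. For the CTSS at 53729304, for example, the soleus controls U6, U7 and U8 had 147, 159 and 18 tags, and its counterpart at 53754390 had 137, 188 and 26. In the EDL controls they had 165, 155 and 106 tags against 160, 167 and 134. Such CTSS lay in 8 peaks with 41.4% of the peak tags. All 8 CTSS tested in the first start were without a counterpart.

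The ratio between the muscles differed between these classes of peaks, which is a description only. The classes were cut on counts over the same soleus and EDL libraries, so a matched CTSS has nearly the ratio of its counterpart by construction. In the 10 peaks that held tested CTSS and none with a counterpart, the mean level in EDL was 3.26 to 3.75 times that in soleus (3.70 times at the first start). In the 8 peaks with counterparts it was 7.32 to 17.1 times that in soleus, and in the 11 peaks without a tested CTSS 2.94 to 7.96 times. The first group is called the unshared peaks, a name for the outcome of this check only. In the peak at 21.1 kb, for example, the tested CTSS held 768 of 5122 tags. Places counted together but with unequal counts would be missed by the check. Whether the remaining tags of the unshared peaks were shared was not tested. How many tags of a shared CTSS came from Myh2 was not tested.

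**Figure D1:**
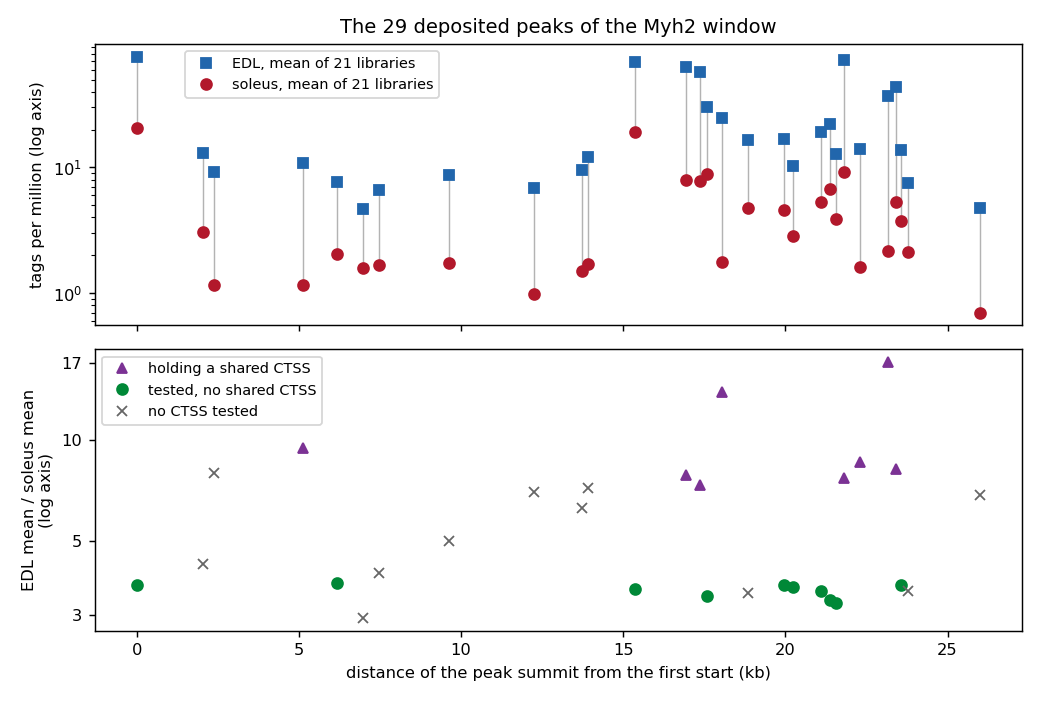
Top, mean level of each of the 29 deposited peaks (TPM, log axis) in 21 soleus and 21 EDL libraries against the distance of its summit from the first start in kb. Bottom, ratio of the EDL mean to the soleus mean (log axis), with peaks marked by whether a tested CTSS had a counterpart elsewhere: the 10 unshared peaks stay between 3.26 and 3.75 and the 8 others between 7.32 and 17.1.

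In soleus the level of the whole window spread widely between rats of a group. The controls U6, U7 and U8 held 340, 420 and 104 TPM. The D1 rats U24, U25 and U26 held 23.2, 126 and 269 TPM, and the D3 rats U9, U10 and U11 held 7.47, 299 and 205 TPM. U24 and U9 stood far below the other rats of their groups. At D7 the level was 86.3, 57.1 and 42.3 TPM in U1, U2 and U3, below every control. At R1 it was 5.10, 1.91 and 18.2 TPM in U18, U20 and U21, which rest on 72, 24 and 332 tags. It was 67.8, 68.1 and 230 TPM in the R3 rats U4, U5 and U16, and 114, 214 and 279 TPM in the R7 rats U12, U13 and U19. All of the R1 libraries lay below all soleus libraries of the other phases except the D3 library of U9, which lay between them.

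In EDL the window held 679, 799 and 640 TPM in the controls U6, U7 and U8, and 604, 603 and 485 TPM in the D1 rats U24, U25 and U26. The D3 rats U9, U10 and U11 held 594, 637 and 1625 TPM, so U11 stood at more than the level of any other library. The D7 rats U1, U2 and U3 held 955, 740 and 823 TPM and the R1 rats U18, U20 and U21 held 654, 737 and 754 TPM. At R3 the level was 355, 639 and 719 TPM in U4, U5 and U16, and at R7 596, 824 and 750 TPM in U12, U13 and U19. Groups of EDL overlapped with their neighbours throughout when ordered by their means, from 952 ± 583 TPM at D3 (SD, n = 3), 839 ± 109 at D7, 723 ± 116 at R7, 715 ± 53.7 at R1 and 706 ± 82.7 in the controls to 571 ± 192 at R3 and 564 ± 68.2 at D1. The soleus groups lay lower by their means, and the highest of them, the controls at 288 ± 164 TPM, did not overlap with EDL D1 but did with EDL R3 (355 to 719 TPM). They were followed by R7 at 202 ± 82.9, D3 at 170 ± 149, D1 at 139 ± 123, R3 at 122 ± 93.6 and D7 at 61.9 ± 22.4 TPM, each of which overlapped with the next. R1 came last at 8.42 ± 8.66 TPM, without overlap with D7 but within reach of D3, whose lowest library was at 7.47 TPM.

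**Figure D2:**
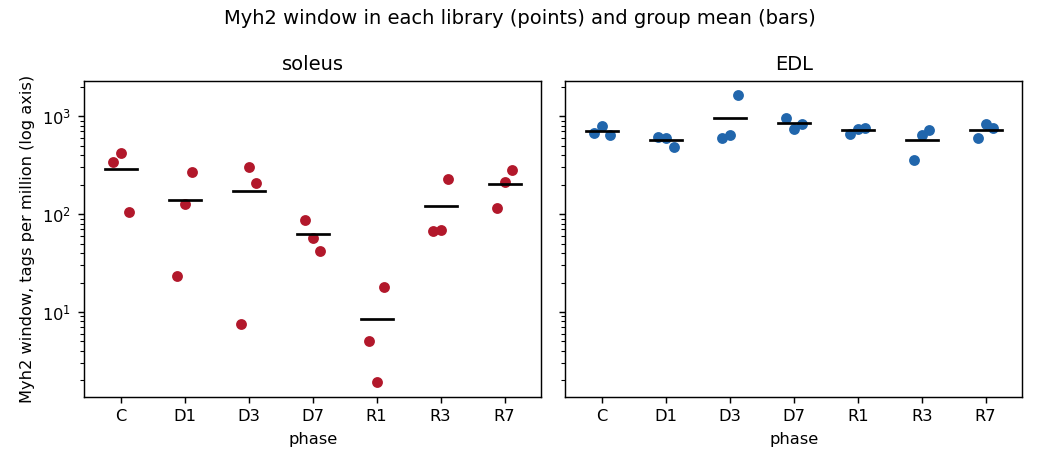
Level of the Myh2 window (TPM, log axis) in each library of soleus (left) and EDL (right) by phase, with points for rats and bars for the mean of 3 rats. Soleus R1 reaches down to 1.91 while every EDL library lies at 355 or above.

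At R1 every peak of the window was lower in soleus than in control, as the choice of the window implies. The median log2 fold change of the 29 peaks was −5.51, between −7.41 and −4.16, while that of all 9842 tested peaks was 0.05. The first start fell least. It held 30.4, 22.4 and 13.8 TPM in the controls U6, U7 and U8 and 1.98, 0.478 and 2.42 TPM in the R1 rats U18, U20 and U21 (log2 fold change −4.16). The peak at 15.4 kb held 55.1, 70.3 and 15.3 TPM in the controls and 0.283, 0.0796 and 1.54 TPM at R1 (−6.60), which come from 4, 1 and 28 tags. The peak at 21.8 kb, which has a counterpart elsewhere, went from 21.5, 28.7 and 6.28 TPM to 0.283, 0 and 1.48 TPM (−5.37). The peak at chr10:53719382-53719497 had the lowest fitted change (−7.41), from 77, 69 and 13 tags in the controls to 0, 0 and 1 tag. With counts this low the fitted size of the fall depends on the prior count of the fit. The R3 soleus library of U4, run in the lane of the R1 libraries, held 67.8 TPM over the window, above all of them. This is 1 library, and the part of lane was not tested.

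The other phases of soleus were set against control and, for recovery, against D7 with edgeR's quasi-likelihood test on the peak counts, where a call was a change of more than 2.38-fold with an adjusted p below 0.05. All 29 peaks passed the filter on low counts, and 0 of 29 were called in each of these 7 comparisons. At D1 1.97% of all 9842 peaks were called in either direction, at D3 0.732% and at D7 0.122%. Those 194, 72 and 12 peaks rested on single libraries, with 59 (without U25) to 195 at D1, 7 (without the control U8) to 70 at D3 and 0 (without the control U8) to 6 at D7 when 1 library was left out. The 29 peaks lie in 1 gene window and were counted in the same 3 rats of a group. Counts of peaks, here and below, are therefore not counts of independent observations. In the window 28 of 29 peaks were below control at D1 (median log2 fold change −1.32) and at D3 (−1.10). The first start was the exception in each, and 0 had an unadjusted p under 0.05. With lane as a block 9 had at D1 and 7 at D3, and with single libraries left out 2 at D1 (without U26) and 1 at D3 (without U10). At D7 all 29 were below control, with a median of −2.56. There 19 had an unadjusted p under 0.05, but the lowest adjusted p was 0.304. The median of all 9842 peaks was 0.01 at D1, 0 at D3 and −0.03 at D7. How many of all peaks had an unadjusted p under 0.05 was not computed, so the count of 19 has no baseline. That count of 19 fell to 1 without the control U7, to 2 without U2, to 6 without U3, to 9 without the control U6 and to 13 without U1. It rose to 24 without the control U8, and with lane as a block it was 17. DESeq2 called 0 window peaks in these 3 phases, with 0, 0 and 23 at an unadjusted p under 0.05, and 320, 182 and 138 of all peaks. These comparisons share their controls with the one that chose the window.

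At R3 the 29 peaks had a median log2 fold change of −1.56 against control, where 1.66% of all peaks were called. At R7 the median was −0.58, where 4.19% were called. The 163 peaks called at R3 fell to 0 without U4 or the controls U6 or U8, and the 412 at R7 ranged from 57 without the control U6 to 1042 without U19. Without the control U7 only 12 of 29 peaks kept their sign at R7, and without U12 of R7 22 did. None of the window peaks reached an unadjusted p under 0.05 in either comparison by edgeR. Without U16 of R3 19 reached it at R3, without the control U8 2 did, and with lane as a block in a fit of all 42 libraries 13 did at R3 and 10 at R7. That fit changed the libraries and the block together, and the part of each was not tested. By DESeq2 1 did at R3 and 0 at R7, and 0 were called, against 401 and 714 of all peaks. Against D7, 28 of 29 peaks were higher at R3 (median 1.02, 5.53% of all peaks called) and all 29 were higher at R7 (median 1.93, 10.8% called). Leaving out 1 library gave 159 (without U2 of D7) to 557 called peaks at R3 in place of 544, and 644 (without U12) to 1605 (without U19) at R7 in place of 1062. The direction at R3 rested on U16, without which 12 of 29 peaks kept their sign. At R7 4 had an unadjusted p under 0.05 by edgeR, whose lowest adjusted p was 0.0976, and with single libraries left out 0 (without U19 of R7) to 10 (without U12 of R7) did. With lane as a block in the 42-library fit 19 did at R7 and 8 at R3. DESeq2 called 2 window peaks as higher at R7 and 0 at R3, with 12 and 1 at an unadjusted p under 0.05. Of all 9842 peaks it called 1236 at R7 in either direction, a larger share than 2 of 29, and 839 at R3. The share of all peaks with an unadjusted p under 0.05 was not computed for any comparison.

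The first start was also followed by itself. It held 6.74, 38.9 and 55.8 TPM in the D1 rats U24, U25 and U26 (log2 fold change against control 0.65, SE 0.87, adjusted p = 0.793 from edgeR) and 0.940, 73.3 and 38.6 TPM in the D3 rats U9, U10 and U11 (0.60, SE 0.87, adjusted p = 0.793). With lane as a block in edgeR these differences turned to −1.73 (adjusted p = 0.597) and −2.40 (adjusted p = 0.648). With single libraries left out, D1 ranged from 0.20 (without U26) to 1.12 (without U24) and D3 from −0.16 (without U10) to 1.19 (without U9). At D7 it was at 3.87, 8.36 and 7.80 TPM in U1, U2 and U3, below every control (−1.93, SE 0.93, adjusted p = 0.464, and −5.20 with lane as a block, adjusted p = 0.505). At R3 it held 22.7, 18.3 and 16.2 TPM in U4, U5 and U16 and at R7 20, 30.5 and 16.7 TPM in U12, U13 and U19, so that both groups overlapped with the controls and lay above every D7 library. Against D7 its log2 fold change was 1.45 (SE 0.93, adjusted p = 0.319) at R3 and 1.86 (SE 0.94, adjusted p = 0.191) at R7.

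Window totals were also compared as log2(TPM + 1) with exact two-sided permutation tests over libraries. Soleus in disuse was at 124 ± 109 TPM (SD, n = 9) and in the controls at 288 ± 164 (n = 3), a difference of −1.68 on the log2 scale that the exact permutation test did not separate from the spread (p = 0.118, 0.355 adjusted over the 9 such tests). Without the control library of U8 it was −2.30 (exact p = 0.0364, unadjusted), and without the low libraries of U24 and U9 it was −0.988 (exact p = 0.217). The soleus controls also entered the choice of the window, so these p-values against control are given as a description and support nothing. In lane 1, the D1 library of U24 at 23.2 TPM lay below the 3 controls. This is 1 library, and the part of lane was not tested. R3 and R7 together, at 162 ± 90.5 TPM (n = 6), differed from disuse by 0.865 on the log2 scale (exact p = 0.284, adjusted 0.638), by 0.467 without U9 (exact p = 0.471) and by 0.171 without U24 and U9 (exact p = 0.763).

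In EDL 0 of 29 window peaks were called in any phase against control by edgeR or by DESeq2, which called 424, 286 and 221 of all peaks at D1, D3 and D7. Of all 9345 peaks tested, edgeR called 3.07% at D1, 1.26% at D3, 1.09% at D7 and 0% at R1, R3 and R7, where DESeq2 called 29, 92 and 1 peaks. These counts also rested on single libraries, with 82 (without U25) to 469 (without U26) in place of 287 at D1, 5 (without the control U7) to 650 (without U11) in place of 118 at D3, 9 (without the control U6) to 86 in place of 102 at D7, and 90 in place of 0 at R3 without U5. The window peaks with an unadjusted p under 0.05 numbered 1, 2, 2, 4, 2 and 0 at D1, D3, D7, R1, R3 and R7 by edgeR and also by DESeq2. Their median log2 fold changes were between −0.58 at R3 and −0.09 at D3 and D7. With single libraries left out, 0 to 8 peaks had an unadjusted p under 0.05 (8 at D3 without U11), and 17 to 29 of 29 kept their sign. With tag totals as library sizes 14 of 29 kept it at D3, 17 at D7, 21 at R1 and 12 at R7, so no direction of the EDL medians is read. With lane as a block in the 42-library fit 11, 13, 14, 0, 6 and 5 peaks had an unadjusted p under 0.05 at D1, D3, D7, R1, R3 and R7. Disuse was at 785 ± 345 TPM (SD, n = 9), recovery at 670 ± 137 (n = 9) and control at 706 ± 82.7 (n = 3). Disuse differed from control by 0.0659 on the log2 scale (exact permutation p = 0.982), recovery from control by −0.104 (exact p = 0.782) and recovery from disuse by −0.170 (exact p = 0.453). The adjusted values were 0.982, 0.880 and 0.756. The difference of disuse from control was −0.0768 without U11 of D3 and −0.00142 without the control U8, and that of recovery from control was 0.00603 without U4 of R3. That of recovery from disuse was −0.0272 without U11 of D3 and −0.0599 without U4 of R3.

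The first start of EDL varied more than the window. It held 57.7, 32.8 and 35.0 TPM in the controls U6, U7 and U8 and 98.4, 57.7 and 78.9 TPM in the D1 rats U24, U25 and U26, so D1 lay at or above the highest control (log2 fold change 1.00, SE 0.66, adjusted p = 0.433 from edgeR). It was at 36.6, 74.5 and 290 TPM in the D3 rats U9, U10 and U11 (1.38, SE 0.65, adjusted p = 0.276). Without U11 the log2 fold change at D3 was 0 (adjusted p = 1.00), and without U24 that at D1 was 0.66 (adjusted p = 0.730). It was at 56.2, 28.3 and 167 TPM in the D7 rats U1, U2 and U3. The R1 rats U18, U20 and U21 held 186, 77.4 and 45.1 TPM, and the R3 and R7 rats 20.2 to 74 TPM. At 15.4 kb the D1 rats were the other way, at 37.1, 38.1 and 28.2 TPM below the controls at 62.6, 123 and 68.2 TPM (−1.29, SE 0.71, adjusted p = 0.345). None of these differences passed the test, and with lane as a block in a fit of all 42 libraries by edgeR those of the first start turned to −2.29 at D1 (adjusted p = 0.584) and −2.53 at D3 (adjusted p = 0.755).

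The muscles were compared over D1, D3, D7, R3 and R7, which leaves out both groups of the contrast that chose the window. All 29 window peaks were lower in soleus by edgeR's quasi-likelihood test on 42 libraries, against 6.27% of all 9947 peaks called lower. The median log2 fold change of the 29 was −2.44, from −4.50 to −2.04, and that of all peaks 0.06. The first start, at −2.05 (SE 0.38, adjusted p = 3.98e-05), was near the smallest of these differences, and the peak at 15.4 kb was at −2.24 (SE 0.45, adjusted p = 0.000133). The peak at 21.8 kb, which has a counterpart elsewhere, was at −3.36 (SE 0.43, adjusted p = 8.05e-08). Within rats, the window was lower in soleus in 15 of 15 rats, at 139 ± 100 TPM (SD, n = 15) against 730 ± 287. The mean difference was −2.82 ± 1.45 (SD) on the log2(TPM + 1) scale, a ratio of 0.142 (exact sign-flip permutation test, p = 6.10e-05, the smallest it can give, adjusted 0.000549). With the unshared peaks alone it was −2.18 and with the first start alone −1.83, at the same p. These 2 settings were chosen after the data had been seen.

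The share of the window tags that lay at the first start was higher in soleus. Over the same 15 rats it was 18.6% ± 9.08 (SD) in soleus and 10% ± 5.37 in EDL, higher in soleus in 12 rats and lower in 3 (mean difference 8.58 percentage points, exact sign-flip permutation p = 0.00232, adjusted 0.0104). The peaks with a counterpart elsewhere moved with this result, at 36.0 ± 26.2 TPM in soleus and 324 ± 75.7 in EDL. When only the unshared peaks were counted, the first start took 32.7% ± 14.2 of their tags in soleus and 27.1% ± 11.9 in EDL, and the difference of 5.59 percentage points did not pass the test (exact p = 0.101). In soleus single shares spread from 4.48% (95% Wilson interval 3.03% to 6.58%) in the D7 library of U1 to 38.9% (28.5% to 50.4%) in the R1 library of U18, and in EDL from 3.40% (2.63% to 4.38%) in the R7 library of U12 to 28.4% (27.4% to 29.5%) in the R1 library of U18. The intervals cover counting error only. In soleus, R3 and R7 at 17.5% ± 10.9 (n = 6) differed from disuse at 19.4% ± 8.26 (n = 9) by −1.84 points (exact p = 0.713, adjusted 0.880), by 0.263 without U16 of R3 and by 0.468 without U19 of R7. In EDL, recovery at 9.75% ± 7.42 (n = 9) differed from disuse at 12% ± 5.95 (n = 9) by −2.23 points (exact p = 0.504, adjusted 0.756), by −4.56 without U18 of R1 (exact p = 0.0634) and by −1.19 without U3 of D7.

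Within the first start, the main cluster (10 nt to either side of 53711929) and the cluster 78 nt upstream (10 nt to either side of 53711851) varied to different degrees. Each was set against the tags of the other unshared peaks, which lie downstream. The main cluster ranged from 3.85 to 133 tags per 100 downstream tags over the 42 libraries, and the upstream cluster from 3.16 to 17.4. The main cluster was at 9.44, 4.81 and 18.2 in the control soleus of U6, U7 and U8 and at 82.5, 85.2 and 44.9 in the D1 soleus of U24, U25 and U26. In EDL it was at 13.6, 4.38 and 7.89 in the controls and at 63.8, 29.9 and 60.3 at D1 in the same rats. D1 lay above the controls in both muscles without overlap. With 3 rats against 3 an exact permutation test cannot go below 0.10, and no test was run. The D1 soleus of U24, in lane 1 together with the controls, lay among the D1 libraries. This is 1 library, with 33 tags in the main cluster and 40 downstream. The D1 EDL libraries were all in other lanes than their controls, and the part of lane was not tested. The upstream cluster in soleus was at 7.27, 4.30 and 6.29 in the controls and at 7.50, 8.01 and 5.58 at D1, and the groups overlapped.

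Across rats the main cluster was mostly high in both muscles or low in both, which is given as a description. The EDL values were divided, after they had been seen, into sets of 11 rats at 4.38 to 13.6 and 10 rats at 28.8 to 129. Within the second set another gap lay from 63.8 to 129, so this cut is not the only one possible. The soleus of the first set held 3.85 to 26.9 and that of the second 26.5 to 133, so that the ranges overlapped at their ends. The 3 controls and the 3 R7 rats were in the lower set and the 3 D1 rats in the higher one, while D3, D7, R1 and R3 had rats in each. Of the 5 rats whose muscles were run in different lanes, 4 were in the higher set and 1 in the lower. Because of these sets no correlation over all rats is given, and since they were cut on the EDL values the tests within them support nothing. Among the rats of D1, D3, D7, R3 and R7, the log2 values of the muscles had r = −0.724 in the 7 lower rats (permutation p = 0.0611, 0.244 adjusted over 4 relations, rho = −0.786 with permutation p = 0.0473, adjusted 0.189), and r = −0.533 without the 2 farthest. In the 8 higher rats they had r = −0.377 (permutation p = 0.348, adjusted 0.592, rho = −0.429 with permutation p = 0.297, adjusted 0.594), and r = −0.871 without the 2 farthest. For the upstream cluster the relation over 15 rats did not pass the test (r = −0.120, permutation p = 0.671, rho = −0.132, p = 0.640, r = −0.0323 without the 2 farthest). For the window total it did not pass either (r = 0.207, permutation p = 0.444, rho = 0.161, p = 0.565, r = 0.0491 without the 2 farthest). Adjusted over the same 4 relations, these p-values were 0.592 to 0.671. Both ends of the soleus values rest on few tags. The lowest has 7 in the main cluster (U1 at D7). The highest, of U18 at R1, has 20 in the main cluster and 15 downstream, and U20 at R1 has 5 and 7. Without the soleus R1 libraries the main cluster ranged from 3.85 to 129 per 100 downstream tags.

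**Figure D3:**
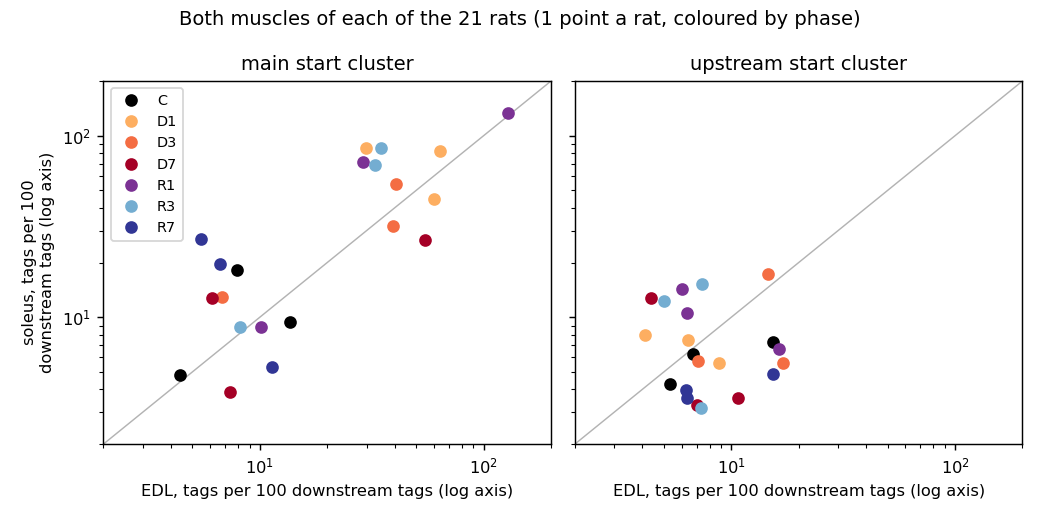
Tags of the main start cluster (left) and of the cluster 78 nt upstream (right) per 100 downstream tags of the unshared peaks, EDL on the x axis and soleus on the y axis (log axes), 1 point for each of the 21 rats coloured by phase, with the line of equal values. The main cluster spreads from 3.85 to 133, and the upstream cluster stays between 3.16 and 17.4.

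Next to its neighbours, Myh2 was the largest of the 3 fast starts in control soleus, while in EDL its start was below that of Myh1 and above that of Myh4 by the mean of each of the 7 groups. This order holds for the starts alone. Over whole windows control EDL held 2208 ± 387 TPM in the Myh4 window, 1375 ± 93.8 in the Myh1 window and 706 ± 82.7 in the Myh2 window (SD, n = 3). The tags of the first starts of the Myh2, Myh1 and Myh4 windows were added up for each library. The start was the first peak alone for Myh2 and Myh1, and for Myh4 the first peak of its window together with the next one. Myh2 took 92.6% ± 6.12 of them (SD, n = 3) in control soleus and 18.5% ± 3.15 in control EDL. In soleus it took 83.9% ± 13.3 at D1, 73.9% ± 22.4 at D3 and 48.1% ± 29.9 at D7, and then 41.3% ± 7.24 at R1, 75.2% ± 3.81 at R3 and 66.4% ± 20.9 at R7. The soleus controls and R1 libraries chose the window, so the change of share between them is given as a description. The R1 shares rest on 28, 6 and 44 tags at the Myh2 start in U18, U20 and U21. In EDL the means of the phases lay between 16.9% at R3 and 37.0% at D1, with single libraries at 7.49% to 52.0%, both of D3. The Myh1 start was at 0.605 to 2.18 TPM in the soleus controls and at 0.876 to 2.91 TPM at R1, and these groups overlapped. It was above every control at D7 (3.08 to 22.6 TPM), R3 (4.68 to 6.52 TPM) and R7 (2.89 to 25.4 TPM), while D1 (0.954 to 21.3 TPM) and D3 (0.830 to 20.7 TPM) overlapped with the controls. Over their whole windows the neighbours were lower at R1 without overlap, as Myh2 was. These totals are not independent of the Myh2 window. Of its 19 CTSS with a counterpart, 17 had the closest one in the Myh1 window and 1 in the Myh4 window. How much of the falls this makes up was not tested. The Myh1 window held 24.5 to 85.1 TPM in the soleus controls and 1.67 to 10.4 TPM at R1, and the Myh4 window 6.80 to 27.4 TPM and 0.637 to 4.89 TPM. The Myh4 start, which marks the fastest fibres, was at 0 to 1.34 TPM in soleus and at 7.19 to 59.9 TPM in EDL.

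**Figure D4:**
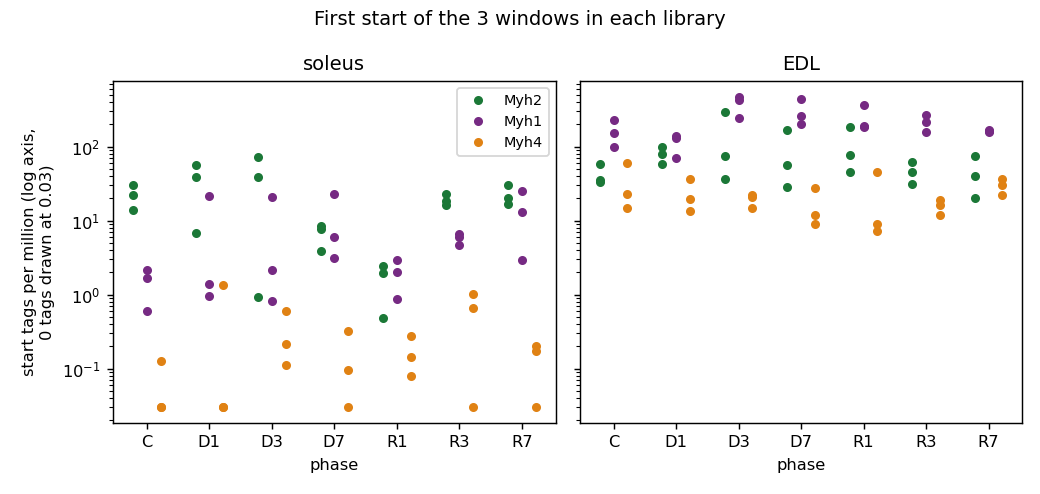
Level of the first starts of the Myh2, Myh1 and Myh4 windows (TPM, log axis, libraries with 0 tags drawn at 0.03) in each library of soleus (left) and EDL (right) by phase. In control soleus Myh2 lies above Myh1 and Myh4 in all 3 rats, and in control EDL Myh1 lies above Myh2 in all 3.

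The window was set beside other peaks by the likeness of their levels in soleus, as a description. Leaving out the myosin genes around the window on chromosome 10, Spearman's rho of log2 TPM with the window total was computed over the 21 soleus libraries for 5204 peaks with a mean of at least 10 TPM there, with a median of −0.314. It was highest at chr1:215608858-215609213 (plus strand, rho = 0.886), then at chr1:215679627-215679757 (plus, 0.858), chr3:161246218-161246427 (minus, 0.822), chr8:72841303-72841671 (minus, 0.803) and chr1:215666418-215666737 (plus, 0.787). The control and R1 libraries, which chose the window, enter these values, and the first of the 5 had a mean of 230 TPM in the controls and 17.7 TPM at R1. Over the 15 soleus libraries of the other phases the 5 peaks had a rho of 0.821, 0.779, 0.811, 0.725 and 0.682 in the same order, against a median of −0.189. These 15 libraries also entered the choice of the 5. Over the 21 EDL libraries the same 5 peaks had a rho of −0.105 to 0.196. Their mean levels were 137 to 8119 TPM in EDL and 10.7 to 773 TPM in soleus, higher in EDL for each. Their names are not given, since no annotation of Rnor_6.0 was used.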

How the data were processed

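The members and lists were chosen with earlier results of these data known. Whole muscle RNA was made into nAnT-iCAGE libraries and read as single ends of 50 nt. The study's methods name trimming, STAR alignment on Rnor_6.0 (up to 20 loci a read) and PromoterPipeline for CTSS. The submitters' processing notes also name Trimmomatic 0.38, BWA and HISAT2, and which aligner made the deposited files is not given in the sources used here. The authors deposited raw counts of tags per CTSS and library and raw counts over 9971 peaks, both as whole numbers without normalization, which the file headers call rescued tag counts. Normalized columns and all authors' comparisons were not used. The 1-based position of a CTSS is given, and lanes were read from the library names.

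Here tags were divided by the total of the library. Peak counts were tested with edgeR 4.0.16 (filterByExpr, TMM, quasi-likelihood test, Benjamini-Hochberg adjustment over all tested peaks) in R 4.3.3, with 21 libraries of a muscle in 1 fit or 42 for the muscles. The SE is the log2 fold change divided by the square root of F. DESeq2 1.42.0 was the alternative. A call needed an adjusted p below 0.05 and a change over 2.38-fold. The procedure was tested on simulated data. Window totals used a pseudocount of 1 TPM and exact permutation tests in scipy 1.17.1. Peaks described in full were, by rule, the first one with a mean of at least 1 TPM, the 3 with the most tags and the 2 largest soleus falls at R1. The muscles of a rat share its number in the labels and are paired in the sign-flip tests for that reason. Within phases their window totals had r = 0.370 over 15 rats. The edgeR p-values of the phases measure the spread between rats of a group. In permutation tests that pool phases, the spread also holds differences between those phases and their lanes. The main edgeR fit of the muscles did not pair the libraries of a rat. The fit with the rat as a block is given in the closing section. Alternatives were other normalizations and filters, lane or rat as a block, leaving out each library, and others named in the closing section.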

Additional observations from a re-analysis of the deposited data

Results flagged for a closer look

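Of 8 checks of pooled groups of 6 or 9 libraries (window level and share at the first start), 3 had a library whose gap to the nearest other one exceeded Dixon's 95% limit. In single samples from a normal distribution about 1 of 20 exceeds that limit. These groups pool phases and lanes, so that rate does not carry over to them. In EDL in disuse the D3 library of U11 held 1625 TPM, with the next one at 955 TPM. In EDL in recovery the R3 library of U4 held 355 TPM, with the next one at 596 TPM. In the same group the R1 library of U18 had 28.4% of its window tags at the first start, with the next one at 10.5%, and the soleus of U18 had the highest share of all libraries.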

How the results depend on the processing

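Counts of called window peaks were 0 or 29 of 29 in nearly all settings and so show little of how stable the values were. Of 174 alternative values of the window totals and shares, 166 kept their direction and their side of the threshold. The exceptions follow, and their cause was not tested. DESeq2 called 2 window peaks in soleus at R7 against D7 where edgeR called 0, while of all peaks DESeq2 called 1236 and edgeR 1062. The difference in the share at the first start between the muscles was 5.59 points (exact p = 0.101) with unshared peaks alone. With the first start alone, EDL recovery against control was 0.390 on the log2 scale, EDL disuse against control 0.914, EDL recovery against disuse −0.523, soleus disuse against control −0.557 and soleus R3 and R7 against disuse 0.496. With single libraries left out, EDL disuse against control ranged from −0.0768 (without U11 of D3, and −0.00142 without control U8) to 0.158, EDL recovery against control from −0.171 to 0.00603 (without U4 of R3), EDL recovery against disuse from −0.245 to −0.0272 (without U11 of D3), its share from −4.56 (without U18 of R1) to −1.19 points, soleus disuse against control from −2.30 (exact p = 0.0364 without control U8) to −1.28, and the share of soleus R3 and R7 against disuse from −5.02 to 0.468 points (without U19 of R7, and 0.263 without U16 of R3). With the rat as a replicate block, which applies to the comparison of the muscles alone, all 29 window peaks were again called lower in soleus, while 1186 of all peaks were called in place of 1183. Without the replicate block the paired window and share differences were −2.82 and 8.58, with permutation p = 2.00e-05 and 0.00410. Over phases, leaving out 1 library left as few as 12 of 29 window peaks with their sign and moved first start differences across 0, as given with those results. With the lane as a block, fitted over the 42 libraries of both muscles except for soleus D1, D3 and D7 (21 libraries), so that both choices changed together, 0 window peaks were called in any phase comparison, while 0 to 160 of all peaks were, and 29 were lower in soleus than in EDL. Phases hold different rats and share no numbers. In the soleus R1 libraries 3 tags are worth 0.165 to 0.239 TPM, and 1.69 TPM in the shallowest library, the D1 EDL of U24.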

Other observations

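Tags on the minus strand of the Myh2 window numbered 7425, and no deposited peak begins there on that strand. They came to 2.11% to 12.5% of the plus-strand tags of a library in soleus. In soleus controls they were at 12.3 ± 6.17 TPM (SD, n = 3) and in EDL controls at 45.1 ± 14.2 TPM, which is 4.46% ± 0.536 and 6.31% ± 1.35 of the plus strand. At R1 the soleus held 0.504 ± 0.421 minus-strand TPM.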
